A study of Rattus norvegicus with 20 samples.

Results

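Cell cycle genes were examined in the medial prefrontal cortex (mPFC) of adult rats, a tissue in which neurons no longer divide. The members were chosen by symbol alone: cyclins of the A, B, D, E, G, H, I, K and T classes with a number in the symbol, numbered cyclin-dependent kinases (CDKs), CDK inhibitors of the Cdkn1, Cdkn2 and Cdkn3 series, the minichromosome maintenance (MCM) genes, E2F factors, Bub1 and Bub3 type checkpoint genes, polo-like kinases and Aurora kinases, without Cdkn1a. Of 67 symbols that matched, 61 reached 5 reads in 10 or more of the 20 libraries and are described here, among 31038 symbols in the count matrix and 16605 that passed the same filter. None of the 67 was a cyclin of the H, I or K class.

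The libraries were made from poly(A)-selected mRNA of male Sprague-Dawley rats, with 1 library per rat and 10 rats in each group. LSD-treated rats received lysergic acid diethylamide, a serotonergic hallucinogen, by intraperitoneal injection at 0.16 mg/kg on alternate days over 90 days. Saline-treated rats received sterile saline on the same schedule. Per the labels all were 6 to 8 weeks old when injections began, lived singly and were sampled after 3 weeks without injections, while the study's methods give an older starting age and a longer interval. Each difference thus concerns drug-free animals of 1 sex, after repeated injections at 1 dose level.

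As background, a cell enters division when D-type cyclins with Cdk4 or Cdk6, and then E-type cyclins with Cdk2, phosphorylate the retinoblastoma protein and free the E2F factors, which switch on the MCM helicase genes and other replication genes. Cyclin A and cyclin B with Cdk1, together with polo-like and Aurora kinases, then drive mitosis, and the Bub proteins watch over chromosome attachment. Several members are known for other roles: Cdk9, Cdk12, Cdk13 and the T-type cyclins act on RNA polymerase II, as does Cdk7, which also activates the CDKs of the cell cycle, Cdk5 and Cdk16 are kinases of mature neurons, and Plk2 and Plk3 are induced by neuronal activity or stress.

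Upstream sequences are shown for 6 members, because they display the DNA motif found in most MCM promoters, with a member that lacks it, and a motif present in both Plk2 and Plk3. RefSeq promoters of the GRCr8 assembly, each with 250 bases before and 50 bases after the annotated start, were matched by symbol to 44 of the 61 members. Each line gives the 250 bases before the start, read 5′ to 3′ along the gene's own strand. In the first 4 lines capitals mark matches to TTTNNCGC, the E2F site, and in the last 2 lines they mark matches to TGACGT, the core of the cyclic AMP response element (CRE). Both strands were searched and overlapping matches were kept.
Mcm2, chr4:122918095-122918344, minus strand: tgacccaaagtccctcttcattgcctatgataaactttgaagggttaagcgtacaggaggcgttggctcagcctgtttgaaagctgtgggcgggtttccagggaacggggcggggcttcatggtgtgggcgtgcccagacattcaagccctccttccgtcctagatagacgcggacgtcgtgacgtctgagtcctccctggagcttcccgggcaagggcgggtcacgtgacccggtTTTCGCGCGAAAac
Mcm6, chr13:42404353-42404602, minus strand: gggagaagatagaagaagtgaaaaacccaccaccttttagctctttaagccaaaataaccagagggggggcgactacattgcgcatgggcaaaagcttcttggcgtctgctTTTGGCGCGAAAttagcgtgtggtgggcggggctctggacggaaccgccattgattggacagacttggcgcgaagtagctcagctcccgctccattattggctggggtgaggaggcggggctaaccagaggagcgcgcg
Cdk1, chr20:19265043-19265292, plus strand: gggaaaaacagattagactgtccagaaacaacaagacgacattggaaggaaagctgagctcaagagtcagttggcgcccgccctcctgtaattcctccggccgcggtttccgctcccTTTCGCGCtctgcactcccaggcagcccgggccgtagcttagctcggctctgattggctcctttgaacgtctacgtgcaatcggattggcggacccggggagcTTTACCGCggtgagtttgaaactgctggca
Mcm9, chr20:33472244-33472493, minus strand: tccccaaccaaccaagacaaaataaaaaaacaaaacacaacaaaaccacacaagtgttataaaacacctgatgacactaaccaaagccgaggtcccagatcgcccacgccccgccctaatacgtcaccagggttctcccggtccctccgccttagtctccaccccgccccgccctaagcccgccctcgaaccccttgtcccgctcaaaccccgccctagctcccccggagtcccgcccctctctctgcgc
Plk2, chr2:43702286-43702535, plus strand: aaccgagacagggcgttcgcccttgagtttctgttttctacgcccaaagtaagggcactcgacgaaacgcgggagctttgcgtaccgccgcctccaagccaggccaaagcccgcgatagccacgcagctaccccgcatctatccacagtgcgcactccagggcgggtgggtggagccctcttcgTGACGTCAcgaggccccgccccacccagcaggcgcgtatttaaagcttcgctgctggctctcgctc
Plk3, chr5:135848901-135849150, minus strand: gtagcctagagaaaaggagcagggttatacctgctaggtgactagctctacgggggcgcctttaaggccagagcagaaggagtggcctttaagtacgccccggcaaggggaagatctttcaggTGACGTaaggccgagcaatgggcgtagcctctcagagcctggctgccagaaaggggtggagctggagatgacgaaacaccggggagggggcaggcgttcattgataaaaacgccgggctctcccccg

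The E2F motif was present in 6 of the 7 MCM promoters with an entry (85.7%), namely those of Mcm2, Mcm3, Mcm5, Mcm6, Mcm7 and Mcm8, and was not found in the window of Mcm9. Over all members it was present in 10 of 44 promoters (22.7%), against 1426 of 27457 promoters of the same length (5.19%). That background was not limited to genes past the read filter, nor matched for base composition. It was found in none of the 6 promoters of transcriptional CDKs and cyclins and none of the 8 of Cdk5 and its atypical relatives. In Mcm2 the matches on the 2 strands overlap, centred at -10 and -6 from the start, and in Cdk1 they are centred at -129 and -26. The CRE core was present in both Plk2 and Plk3, in 9 of 44 members (20.5%) and in 8.22% of all promoters. The other 7 were Plk4, Mcm2, Mcm5, Mcm9, Cdk2, Ccnd3 and Cdkn2b. Plk2 holds the palindrome TGACGTCA, which matches on both strands, as do Plk4, Mcm5 and Cdkn2b. Plk3 holds the core once, centred at -124. In the first 4 lines the core is not capitalised, where Mcm2 holds it at -67 and Mcm9, on the opposite strand, at -127. The remaining motifs searched were TTTGAA, the cell cycle homology element (20.5% of members, 18.1% of all promoters), CCAAT (52.3% and 37.7%) and the E-box CACGTG (13.6% and 6.65%). These matches describe letters in a window, and the reads measured here do not show whether a factor is bound.

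Reads assigned to genes ranged from 16346629 to 25552681 per LSD-treated rat (median 20271086) and from 11098076 to 24201351 per saline-treated rat (median 16815424). Values are given as RPM after TMM scaling (normalised RPM), a gene's reads relative to the scaled total of its library, and differences were tested with edgeR's quasi-likelihood test and Benjamini-Hochberg adjustment over all 16605 genes at a threshold of 0.05. Striatal neuron markers, summed over 8 genes, reached 546 to 796 normalised RPM in 4 libraries (LSD 9 and saline 2, 8 and 9) and lay between 266 and 398 in the other 16. All 8 of these genes had a negative log2 fold change between treatments (median -0.71), and 1, Gpr6, passed the threshold. The 8 mature oligodendrocyte markers also all leaned lower with LSD (median -0.36, 1 past the threshold), with sums of 2380 to 6050 and 2420 to 7830 normalised RPM in the LSD and saline groups. Of all genes tested, 8.54% were lower at this threshold. Without the 4 libraries the striatal and oligodendrocyte medians were -0.23 and -0.14. In that fit 2 striatal markers and 1 oligodendrocyte marker were past the threshold, all lower (10.1% of all genes). The members whose call changed without the 4 libraries are given with both values. In bulk RNA of this kind, fewer cells of a type and less RNA per cell cannot be told apart.

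**Figure D1:**
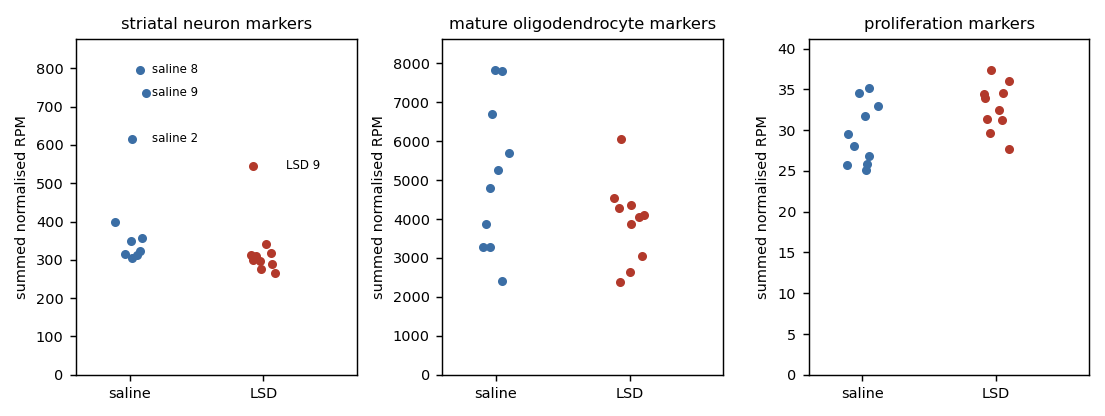
Summed normalised RPM (vertical axes, from 0) of striatal neuron, mature oligodendrocyte and proliferation markers, 1 point per rat in the saline (blue) and LSD (red) groups. In the left panel saline 2, 8 and 9 and LSD 9 stand apart at 546 to 796, and the other 16 libraries lie at 266 to 398.

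Of the 61 members, 15 differed between LSD- and saline-treated rats (24.6%), against 15.0% of all genes tested. Among them 10 were higher with LSD (16.4%, against 6.48% of all genes) and 5 were lower (8.2%, against 8.54%). The higher members were Mcm9, Ccng2, Cdkn2aip, Cdk13, Cdk6, Plk2, Cdk12, Ccnt1, Cdk7 and Cdk17, and the lower members were Cdk5, E2f4, Cdk16, Ccnd3 and Cdk9. By role, 4 higher and 1 lower were transcriptional CDKs and cyclins (of 8), and 2 and 2 were Cdk5 and atypical members (of 9). The G1 genes had 1 higher and 1 lower (of 8), the MCM genes 1 and 0 (of 8), and the E2F factors 0 and 1 (of 7). None of the 10 mitotic genes and none of the 5 CDK inhibitors was among them. Plk2 and a gene that only shares letters with the rule made up the rest. The differences were small: the median absolute log2 fold change was 0.149 over the members and 0.136 over all genes. For none of the 61 did the values of the 2 groups separate completely, which was the case for 0.193% of all genes.

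These counts depended on single rats. The fewest were called without LSD 8, 6 of 61 members, a share near the 9.43% of all genes called in that fit. The most were 20, without saline 10 (18.7% of all genes). Without saline 4 and saline 5, 8 and 9 were called (10% and 10.7%). Scaling by total reads gave 12 members higher and 3 lower (9.04% and 5.17% of all genes, 14.2% together), and of all calls the share that was lower was then 36.4%, against 56.9%. Without the 4 libraries rich in striatal markers, 11 members were higher and 6 lower (10.2% and 10.1% of all genes, 20.3% together).

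**Figure D2:**
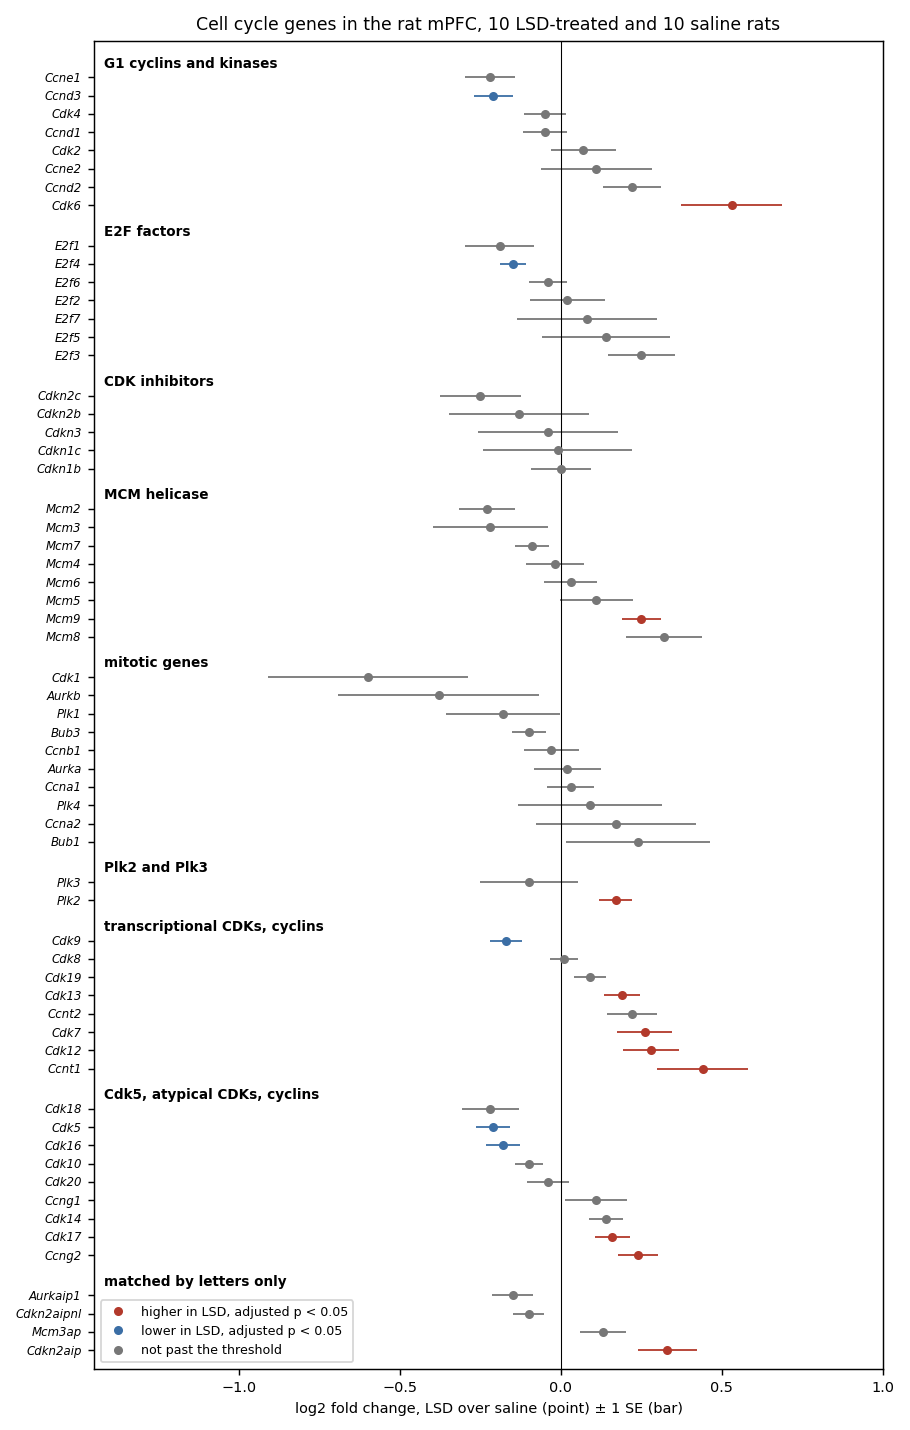
Log2 fold change of LSD over saline for the 61 members (horizontal axis), grouped by role; points are edgeR estimates and bars 1 standard error, with red higher, blue lower and grey not past the threshold. Most estimates lie close to 0, with Cdk6 highest at 0.53, and Cdk1 lowest at -0.60 with a wide bar.

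Among the 8 G1 cyclins and kinases, Cdk6 rose and Ccnd3 fell, and the other 6 did not pass the threshold. Cdk6, a partner of the D-type cyclins, was measured at 2.09 to 3.87 normalised RPM in LSD-treated rats (median 3.01) and 0.906 to 2.75 in saline-treated rats (median 2.19). In 6 LSD-treated rats Cdk6 was above every saline-treated rat, and the lowest value was that of saline 9. Cdk6 had a log2 fold change of 0.53 (SE 0.157, edgeR adjusted p = 0.027), the largest increase among the members called, and it rests on a median of 48.5 reads per rat. Without saline 4 it was 0.49 (adjusted p = 0.0522).

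Ccnd3, which encodes cyclin D3, was measured at 34.4 to 47.1 normalised RPM with LSD (median 42.5) and 39.5 to 52.0 with saline (median 48.5). All 10 LSD-treated rats lay below the saline median, and 3 lay below the lowest saline-treated rat, saline 2. It fell by 0.21 on the log2 scale (SE 0.0607, edgeR adjusted p = 0.0239), a call that was lost with scaling by total reads (log2 fold change -0.16, adjusted p = 0.0864), with no filter on low counts (0.0523) and without LSD 8 (0.0521). The other D-type cyclins did not pass. Ccnd2 ranged from 37.7 to 55.3 normalised RPM with LSD and 25.5 to 47.4 with saline (log2 fold change 0.22, edgeR adjusted p = 0.102), and with scaling by total reads its adjusted p was 0.0484 and with 1 surrogate variable 0.0224, whereas without the 4 libraries rich in striatal markers the log2 fold change was 0.11. For Ccnd1, encoding cyclin D1, the 95% interval of the log2 fold change ran from -0.19 to 0.09, and for Cdk4 from -0.18 to 0.08. Ccne1, encoding cyclin E1, was at 10.2 to 15.0 normalised RPM with LSD and 13.4 to 19.4 with saline, with all 10 LSD-treated rats below the saline median, and missed the threshold (log2 fold change -0.22, edgeR adjusted p = 0.0554). Ccne1 passed with DESeq2 (adjusted p = 0.0381), with 1 surrogate variable (0.0476) and at equal depth (0.0215), and was at -0.14 (0.23) without those 4 libraries.

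Of the 7 E2F factors, E2f4 was the 1 that passed the threshold. E2f4, which with p130 represses cell cycle genes in resting cells, spanned 30.0 to 32.0 normalised RPM in the LSD group (median 31.2) and 31.7 to 38.0 in the saline group (median 33.7). The LSD-treated rats were tightly grouped, and 7 of the 10 were below the lowest saline-treated rat. E2f4 fell by 0.15 on the log2 scale (SE 0.0409, edgeR adjusted p = 0.0192). The call held with each of the 20 rats left out in turn, but not with scaling by total reads (adjusted p = 0.0837) or with no filter on low counts (0.0685). The activators did not pass: E2f1 had a log2 fold change of -0.19 (95% interval -0.41 to 0.03) and E2f3 of 0.25 (0.03 to 0.46, edgeR adjusted p = 0.11).

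None of the 5 CDK inhibitors passed the threshold. Cdkn1b, encoding p27, which holds neurons and glia out of the cycle, had nearly equal medians of 20.2 normalised RPM with LSD and 20.9 with saline, and a 95% interval of -0.19 to 0.20 for its log2 fold change. Cdkn1c, encoding p57, varied widely between rats, from 3.22 to 14.8 normalised RPM with LSD and 6.22 to 17.1 with saline, with an interval of -0.49 to 0.47. Its biological coefficient of variation, the rat-to-rat spread that remains after counting error, was 35.5%, against a median of 11.6% over the members and 13.2% over all genes. Cdkn2c, encoding p18, was at or below the saline median in all 10 LSD-treated rats (0.94 to 1.66 against 1.13 to 2.17 normalised RPM) but did not pass (log2 fold change -0.25, edgeR adjusted p = 0.184). Cdkn2b had a log2 fold change of -0.13 (95% interval -0.58 to 0.32). The related Cdkn1a, left out of the member list, had a log2 fold change of -0.23 (edgeR adjusted p = 0.208).

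In the MCM family, 1 of 8 genes rose, and it is not part of the replicative helicase. Mcm9, which acts with Mcm8 in homologous recombination and mismatch repair, was measured at 13.2 to 15.5 normalised RPM with LSD (median 14.7) and 10.4 to 14.3 with saline (median 12.0). All 10 LSD-treated rats exceeded the saline median and 6 exceeded the highest saline-treated rat, saline 7. Mcm9 rose by a log2 fold change of 0.25 (SE 0.0619, edgeR adjusted p = 0.0113), the smallest p among the members, and the call held in all 8 alternative settings and with each rat left out (log2 fold change 0.23 to 0.28). Its partner Mcm8 spanned 2.15 to 4.09 normalised RPM with LSD and 2.01 to 2.85 with saline, with 6 LSD-treated rats above every saline-treated rat, and did not pass (log2 fold change 0.32, edgeR adjusted p = 0.0672).

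Mcm2, a subunit of the helicase that is loaded on DNA before replication, leaned the other way. It ranged from 5.37 to 8.07 normalised RPM with LSD (median 6.92) and from 6.78 to 9.5 with saline (median 8.01), and 5 LSD-treated rats were below the lowest saline-treated rat. The log2 fold change was -0.23 (edgeR adjusted p = 0.0794), and without the 4 libraries rich in striatal markers it was -0.28 (adjusted p = 0.0473). The 5 other helicase subunits, Mcm3 to Mcm7, had adjusted p between 0.24 and 0.919. The 6 MCM genes with the E2F motif had log2 fold changes from -0.23 (Mcm2) to 0.32 (Mcm8). Mcm6, whose promoter is printed above, was at 0.03 (95% interval -0.14 to 0.20). A relation between the motif and these changes was not tested.

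No mitotic gene passed the threshold, and several of these 10 members had few reads. Cdk1, the kinase that drives entry into mitosis, had 1 to 20 reads per rat (median 5.5), or 0.0395 to 0.405 normalised RPM with LSD and 0.212 to 0.797 with saline. Saline 2 had by far the highest value. The log2 fold change was -0.60 with a 95% interval of -1.25 to 0.04 (edgeR adjusted p = 0.19), and without the 4 libraries rich in striatal markers, saline 2 among them, it was -0.34. Whether Cdk1 differed could not be detected at this depth. Aurkb, the chromosomal passenger kinase, had 1 to 10 reads and an interval of -1.03 to 0.26, and Ccna2, encoding cyclin A2, had 2 to 23 reads and an interval of -0.35 to 0.68. Ccnb1, encoding cyclin B1, was better measured, with a median of 66.5 reads, and its interval ran from -0.20 to 0.15.

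The read filter fell within this group. Aurkb passed with 10 libraries at 5 or more reads and Cdk1 with 12, whereas Bub1b had 9 such libraries (1 to 10 reads per rat) and was left out. Ccnb1ip1 reached 5 reads in 1 library, and Ccnb2, Ccnb3, Cdkn2a and E2f8 in none, with at most 4 reads in any rat. Of the 61 members, 17 had a median under 50 reads.

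**Figure D3:**
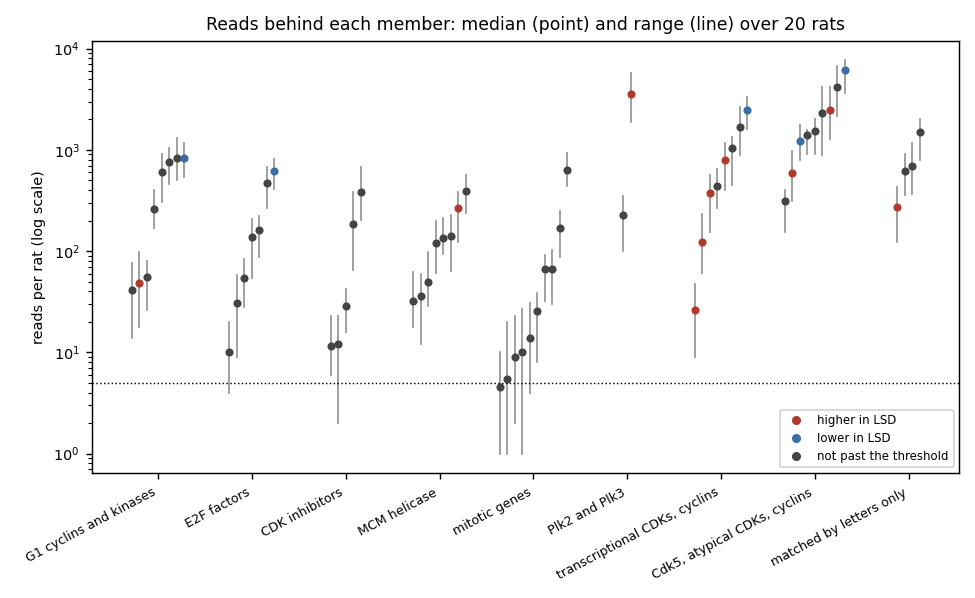
Raw reads per rat for each member (vertical axis, log scale), grouped by role; points are medians and lines the range over 20 rats, and the dotted line marks 5 reads. The lowest points are the mitotic genes Aurkb and Cdk1 at medians of 4.5 and 5.5 reads, Bub3 of the same group is at 636.5, and the members called lie between Ccnt1 at 26 and Cdk16 at 6108.

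Plk2 rose while Plk3 did not pass. Plk2, which is induced by synaptic activity and weakens overactive synapses, was measured at 185 to 226 normalised RPM with LSD (median 196) and 159 to 194 with saline (median 183). All 10 LSD-treated rats exceeded the saline median and 5 exceeded the highest saline-treated rat, saline 2. Plk2 rose by 0.17 on the log2 scale (SE 0.0504, edgeR adjusted p = 0.0299). It was past the threshold in all 8 alternative settings and in 14 of 20 fits with 1 rat left out, the exceptions being those without LSD 3, 5 or 8 or saline 1, 4 or 5 (adjusted p 0.0503 to 0.0597). Plk3 spanned 6.39 to 17.6 normalised RPM with LSD and 8.89 to 17.4 with saline, with a log2 fold change of -0.10 (95% interval -0.42 to 0.21).

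Levels of Plk3 rose with those of Fos, an activity-induced transcription factor, by rank across the rats, whereas Pearson's r did not pass after adjustment. Over 20 rats Pearson's r of log2 values was 0.536 (permutation p = 0.0153, adjusted over 6 pairs 0.0919) and Spearman's rho was 0.636 (permutation p = 0.00316, adjusted 0.019). Without LSD 2 and saline 1, the rats farthest from the median of Fos, r was 0.845 (n = 18, permutation p = 2e-05, not adjusted). Within the groups r was 0.714 in LSD-treated rats and 0.557 in saline-treated rats (n = 10 each, permutation p = 0.0177 and 0.0818). Fos itself did not pass the threshold between treatments (log2 fold change 0.23, 95% interval -0.27 to 0.73).

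Plk2 showed a weaker relation with Arc, another activity-induced gene (r = 0.346, rho = 0.259, permutation adjusted p = 0.204 and 0.405), and r was 0.165 without LSD 1 and saline 1. The remaining 4 pairs did not pass. Pearson's r was 0.453 for Cdkn1c with the endothelial gene Cldn5 (permutation adjusted p = 0.136), 0.376 for Ccnd1 with Pdgfra, a marker of oligodendrocyte precursors (0.203), -0.0489 for Mcm2 with the proliferation marker Mki67 (0.921) and -0.0229 for Cdk18 with the myelin gene Mbp (0.921). Spearman's rho for these pairs was 0.421, 0.423, 0.0632 and -0.0421, with permutation adjusted p of 0.134, 0.134, 0.861 and 0.861. Without the 2 rats farthest from the median of the second gene, r was 0.332, 0.258, -0.0385 and 0.0288. Within the LSD group (n = 10) r was 0.791, 0.457, 0.0635 and -0.164, and within the saline group (n = 10) 0.251, 0.408, 0.323 and -0.281. For Cdkn1c with Cldn5 the permutation p within these groups was 0.00533 and 0.489, not adjusted. Plk2 with Arc had r of 0.422 with LSD and 0.287 with saline.

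**Figure D4:**
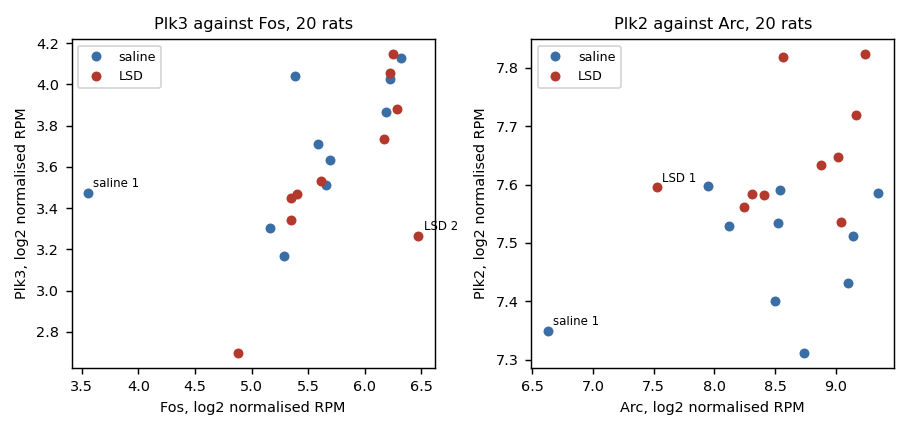
Log2 normalised RPM of Plk3 against Fos (left) and of Plk2 against Arc (right), 1 point per rat, saline in blue and LSD in red, with the rats left out in the second calculation named. Plk3 rises with Fos apart from saline 1 and LSD 2 (r = 0.536 with them and 0.845 without), whereas Plk2 and Arc are scattered (r = 0.346).

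The transcriptional CDKs and cyclins held the most calls of any group, with 4 of 8 higher and 1 lower (6.48% and 8.54% of all genes), and a median log2 fold change of 0.20 against 0.01 over all members and 0.00 over all genes. Cdk12 and Cdk13 phosphorylate the tail of RNA polymerase II during elongation. Cdk12 was at 18.2 to 21.2 normalised RPM with LSD (median 20) and 10.7 to 20.6 with saline (median 16.1), so all LSD-treated rats were above the saline median while the saline-treated rats were widely spread. Its log2 fold change was 0.28 (SE 0.0863, edgeR adjusted p = 0.0333). Cdk13 was at 39.4 to 46.1 normalised RPM with LSD (median 45.0) and 30.6 to 43.7 with saline (median 39.7), and 6 LSD-treated rats were above every saline-treated rat. It rose by 0.19 (SE 0.0551, edgeR adjusted p = 0.0255) on the log2 scale, and without the 4 libraries rich in striatal markers by 0.13 (adjusted p = 0.0635). Saline 9, one of those 4, was the lowest saline-treated rat for both kinases.

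Cdk7 is the kinase of the general factor TFIIH and also activates other CDKs. Its level was 6.26 to 9.09 normalised RPM with LSD (median 7) and 5.03 to 7.42 with saline (median 5.97), with all LSD-treated rats above the saline median and 4 above every saline-treated rat. Its increase was 0.26 on the log2 scale (SE 0.0855, edgeR adjusted p = 0.0459). Ccnt1 encodes cyclin T1, which pairs with Cdk9 in the elongation factor P-TEFb. It was measured at 1.1 to 2.14 normalised RPM with LSD (median 1.63) and 0.833 to 1.52 with saline (median 1.15) from a median of 26 reads, and its log2 fold change was 0.44 (SE 0.141, edgeR adjusted p = 0.0372). For Ccnt2, the other T-type cyclin, all 10 LSD-treated rats were above the saline median and the log2 fold change was 0.22 (edgeR adjusted p = 0.057). Ccnt2 passed the threshold with DESeq2 (adjusted p = 0.0496), with total reads (0.0274), at equal depth (0.0382) and without the 4 libraries rich in striatal markers (0.23, adjusted p = 0.0402).

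Cdk9, the kinase of the same complex, fell. It was at 117 to 136 normalised RPM with LSD (median 126) and 120 to 160 with saline (median 139), and all 10 LSD-treated rats were below the saline median. Its log2 fold change was -0.17 (SE 0.0502, edgeR adjusted p = 0.0257). Cdk8 and Cdk19, the kinases of the Mediator complex, had 95% intervals of -0.08 to 0.10 and -0.01 to 0.19. Left-out rats ended several of these calls: Cdk12 remained past the threshold in 11 of 20 such fits, Ccnt1 and Cdk7 in 9 each, Cdk9 in 15 (not without LSD 7 or 8 or saline 1, 4 or 5) and Cdk13 in 19 (not without LSD 8), with the highest adjusted p at 0.0623, 0.0679, 0.0789, 0.0584 and 0.0505. With reads drawn down to an equal depth of 11098076 per rat, Cdk12, Cdk13, Ccnt1 and Cdk7 did not pass (adjusted p 0.0668, 0.0691, 0.153 and 0.334). With no filter on low counts Ccnt1, Cdk7 and Cdk9 did not pass (0.0612, 0.0666 and 0.0696), nor did Cdk12 and Cdk7 with 1 surrogate variable (0.0506 and 0.0712).

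A list of partners of the transcriptional and neuronal CDKs was written after the members' values had been seen, and it is given as a description. Of 18 partners tested, 3 were higher with LSD and 1 was lower (6.48% and 8.54% of all genes). Aff4, a scaffold of the super elongation complex that holds P-TEFb, had a log2 fold change of 0.29 (edgeR adjusted p = 0.00899), Med13 and Med12l, of the Mediator kinase module, had 0.43 (0.00902) and 0.48 (0.0152). Ccnk, the cyclin of Cdk12 and Cdk13, had -0.18 (edgeR adjusted p = 0.0409).

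Among Cdk5 and the atypical CDKs and cyclins, 2 of 9 rose and 2 fell. Cdk5, a kinase of postmitotic neurons with roles in migration and synaptic function, was measured at 57.2 to 73.1 normalised RPM with LSD (median 62.3) and 65.1 to 86.9 with saline (median 72.1). In 8 LSD-treated rats it was below every saline-treated rat, and LSD 1 was the exception above the saline median. The log2 fold change was -0.21 (SE 0.0529, edgeR adjusted p = 0.0126), and the call held in all 8 alternative settings and with each rat left out (-0.24 to -0.18). The genes of its activators p35 and p39, on the partner list, did not pass: Cdk5r1 had a log2 fold change of 0.10 (95% interval -0.08 to 0.28) and Cdk5r2 of -0.21 (-0.41 to 0.00).

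Cdk16, a PCTAIRE kinase found in neurons, was at 271 to 334 normalised RPM with LSD (median 302) and 305 to 409 with saline (median 339). All 10 LSD-treated rats were below the saline median, and 5 were below the lowest saline-treated rat. It fell by 0.18 on the log2 scale (SE 0.0530, edgeR adjusted p = 0.0235). Its relative Cdk17 differed in the opposite direction, at 128 to 157 normalised RPM with LSD (median 136) and 115 to 152 with saline (median 125), with a log2 fold change of 0.16 (SE 0.0530, edgeR adjusted p = 0.0486). The highest saline value of Cdk17, in saline 2, lay within the LSD range, and without the 4 libraries rich in striatal markers the log2 fold change was 0.19 (adjusted p = 0.0164). The call of Cdk17 held in 3 of 20 fits with a rat left out (highest adjusted p 0.0825), and that of Cdk16 in 18, being lost without LSD 7 (0.0506) or LSD 8 (0.0522). With no filter on low counts neither passed (adjusted p 0.0606 for Cdk17 and 0.0675 for Cdk16), and with 1 surrogate variable Cdk17 was at 0.10 (adjusted p = 0.0768).

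Ccng2, encoding cyclin G2, which accumulates in cells that have left the cycle, was higher with LSD. It was measured at 32.1 to 38.4 normalised RPM with LSD (median 33.3) and 25.2 to 37.7 with saline (median 27.8). Every LSD-treated rat was above the saline median, and the overlap of the groups came from saline 2, whose nearest neighbour in its group was at 30.6. Ccng2 had a log2 fold change of 0.24 (SE 0.0626, edgeR adjusted p = 0.0144), it passed in all 8 alternative settings and with each rat left out, and it was 0.33 (adjusted p = 0.00333) without the 4 libraries rich in striatal markers. The related Ccng1 did not pass with all rats (log2 fold change 0.11, edgeR adjusted p = 0.479) and had 0.27 (adjusted p = 0.0196) without those 4. Cdk14 and Cdk18 missed the threshold, with log2 fold changes of 0.14 and -0.22 (edgeR adjusted p = 0.0753 and 0.0927).

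The last 4 members share letters with the rule but are not cyclins, kinases or inhibitors themselves: Aurkaip1, Cdkn2aip, Cdkn2aipnl and Mcm3ap. Cdkn2aip encodes CARF, a binding partner of the tumour suppressor ARF. It was at 10.9 to 16.9 normalised RPM with LSD (median 15.6) and 8.79 to 14.2 with saline (median 12.9), and 8 LSD-treated rats were above every saline-treated rat while LSD 1 was well below the rest of its group. Its log2 fold change was 0.33 (SE 0.0913, edgeR adjusted p = 0.0205), and at equal depth it was 0.23 (adjusted p = 0.105). Aurkaip1, a mitochondrial protein gene, had -0.15 (edgeR adjusted p = 0.107).

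**Figure D5:**
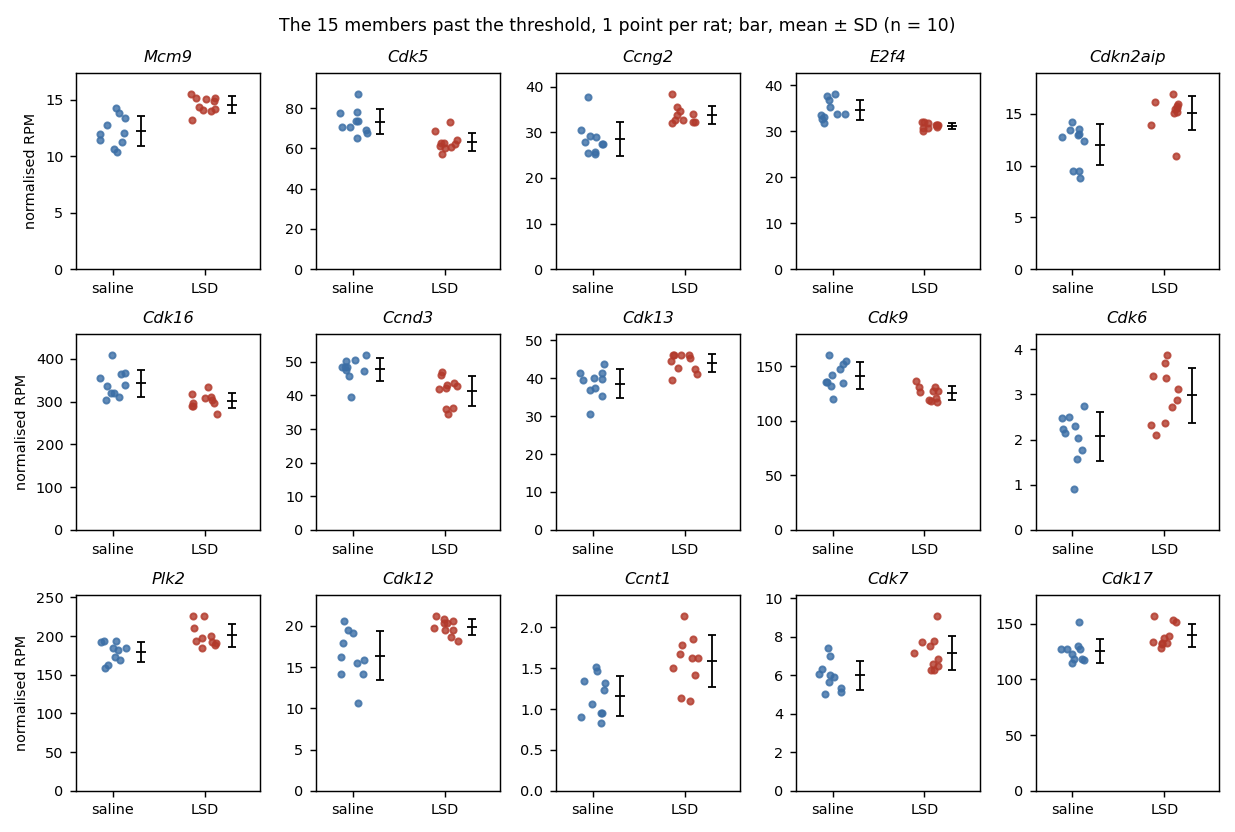
Normalised RPM (vertical axes, from 0) of the 15 members past the threshold, 1 point per rat, with mean ± SD (n = 10) beside each group, saline in blue and LSD in red. The groups overlap in every panel; for Cdk5, 8 LSD-treated rats are below all saline-treated rats, and for Cdkn2aip 8 are above.

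Further genes of the cell cycle machinery were read from 5 lists, and their counts stand beside 6.48% of all genes higher and 8.54% lower. Proliferation markers gave 2 higher and 0 lower of 15 tested, with a median log2 fold change of 0.04. Kif23 and Kif20a, kinesins of cell division, had 0.32 and 0.35 (edgeR adjusted p = 0.0361 and 0.0422), and Mki67, the usual marker of cycling cells, had 0.25 with a 95% interval of -0.11 to 0.62. The summed level of these markers was 27.7 to 37.4 normalised RPM in LSD-treated rats (median 33.2) and 25.1 to 35.2 in saline-treated rats (median 28.8). Without the 4 libraries rich in striatal markers the medians were 32.5 and 26.8, with ranges of 27.7 to 36 (n = 9) and 25.1 to 33 (n = 7) that still overlapped. Replication licensing and origin firing gave 1 of 18 higher and 0 lower, the 1 being Orc3 of the origin recognition complex (log2 fold change 0.32, edgeR adjusted p = 0.0296).

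The retinoblastoma family with its DP and MuvB partners gave 2 higher and 1 lower of 12. Rb1, the retinoblastoma gene itself, was at 16.8 to 26 normalised RPM with LSD (median 20.5) and 10.3 to 22.6 with saline (median 14.7), with all 10 LSD-treated rats above the saline median (log2 fold change 0.41, edgeR adjusted p = 0.0326). Lin54 and Lin37, subunits of the MuvB core, went opposite ways, with 0.20 and -0.23 (edgeR adjusted p = 0.0384 and 0.0145). Of 12 CDC25, WEE1 and checkpoint genes, 3 were higher and 0 lower. Wee1, which restrains Cdk1, was at 25.9 to 32.3 normalised RPM with LSD and 20.9 to 27.1 with saline, with 8 LSD-treated rats above every saline-treated rat (log2 fold change 0.23, edgeR adjusted p = 0.00918). Its opponent Cdc25c, a phosphatase that activates Cdk1, had 0.35 (0.0484), and Atm, a DNA damage kinase, had 0.31 (0.0165).

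Ubiquitin ligases that end cell cycle phases, the APC/C and SCF complexes, gave 1 higher and 2 lower of 24. Within the APC/C, Cdc27 had a log2 fold change of 0.32 (edgeR adjusted p = 0.00886), while the small subunits Anapc11 and Anapc15 had -0.49 (0.00357) and -0.20 (0.0458).

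Markers of several cell types, only some of which can divide in adult cortex, were read beside the members. Their counts stand beside 6.48% of all genes higher and 8.54% lower. Of 7 oligodendrocyte precursor markers, 2 were lower, Sox10 (log2 fold change -0.41, edgeR adjusted p = 0.00888) and Olig1 (-0.32, 0.0285), and Pdgfra had a 95% interval of -0.13 to 0.24. All 8 mature oligodendrocyte markers also leaned lower (median log2 fold change -0.36). Which stage of the lineage the Sox10 and Olig1 values reflect was not tested. Among neuroblast and progenitor markers, Dcx, a microtubule protein of young neurons, had 0.52 (edgeR adjusted p = 0.0274), and the progenitor factor Sox2 had -0.29 (0.00992). None of 8 microglial and none of 8 endothelial markers passed. Of the endothelial markers 6 leaned lower (median log2 fold change -0.15, smallest edgeR adjusted p = 0.0517), and of the microglial markers 2 (median 0.01, 0.391). Astrocyte markers gave 1 higher (Slc1a2) and 1 lower (Aldoc) of 8, excitatory neuron markers 1 higher (Rorb) and 0 lower of 8, and inhibitory neuron markers 2 higher (Gad2, Vip) and 2 lower (Slc32a1, Sst) of 8. Choroid plexus and ependymal markers gave no call among 6, and blood markers gave 1 lower (Hbb, log2 fold change -0.50, edgeR adjusted p = 0.0434) of 6. The part of these marker differences in the members' values was not tested.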

How the data were processed

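RNA-seq of the mPFC covered 10 LSD-treated and 10 saline-treated rats, 1 library per rat. Per the labels and the study's methods, the authors used TrimGalore for trimming, Hisat2 for alignment to rn6 and HTSeq-count for counting, and deposited raw counts. Tool versions, annotation and strand setting are not given in the sources used here, so reads of overlapping or antisense genes cannot be told apart. The 5 unnamed rows (25.5% to 29% of reads per rat) were left out of library sizes and tests.

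Genes reaching 5 reads in 10 or more libraries were tested with edgeR 4.0.16 (quasi-likelihood F test, TMM) in R 4.3.3, with Benjamini-Hochberg adjustment over 16605 genes. The 8 alternative settings were total reads or median-ratio size factors for scaling, DESeq2 1.42.0, no filter, a minimum of 10 reads, 1 surrogate variable (sva 3.50.0), a replicate block and equal depth. In addition each rat was left out in turn. Leaving out the 4 libraries rich in striatal markers was added after seeing the data. Correlations used log2 values with a prior count of 2, and two-sided permutation tests with 100000 resamples (scipy 1.17.1). Promoters came from RefSeq, GRCr8, the first entry where a gene had several. GRCr8 is not the build of the counts, so no gene positions on rn6 and no gene lengths were used, and levels were not compared between genes.

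The members and lists were chosen with earlier results of these data known. Genes named are members past the threshold with or without the block, the 2 largest changes in each role, 16 core members, the 6 correlation partners, Cdkn1a, and up to 4 genes called per list. Ccnt2, Ccng1, Cdk8, Cdk19, Mcm6, the genes of the partner list and those flagged for a single rat outside this rule were named after their values were seen. Splicing and protein were not analysed here, and 1 marker gene is not reported here.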

Additional observations from a re-analysis of the deposited data

Results flagged for a closer look

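Single rats stood apart from their group in 13 of 122 combinations of a member and a group: the gap to the next rat was large against the whole range of the group. The gap, as a share of the range, was above Dixon's critical value for 10 samples, which by its construction flags about 1 in 20 groups by chance. All values are normalised RPM and were not explained.

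Saline 2, one of the 4 libraries rich in striatal markers, accounted for 4 of them. It was highest for Ccng2 (37.7, next 30.6), Cdk17 (152, next 130) and Cdk1 (0.797, next 0.425), and lowest for Ccnd3 (39.5, next 45.8). Saline 9, another of the 4, was highest for Cdk4 (41.1, next 34.7) and for Cdkn2aipnl (41.1, next 36.2). Of the remaining saline-treated rats, saline 4 was highest for Ccnd1 (49.7, next 43.2), saline 5 was lowest for Bub1 (0.0926, next 0.424), from 1 read, and saline 10 was lowest for Bub3 (28.7, next 34.6).

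In the LSD group, LSD 4 was highest for Ccnt2 (63.8, next 53.6) and lowest for E2f6 (21.1, next 24.0). LSD 1 was lowest for Cdkn2aip (10.9, next 13.9), and LSD 10 was lowest for Mcm3ap (61.5, next 75.6).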

How the results depend on the processing

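The 15 calls among the members were all made by DESeq2, with median-ratio size factors and with a minimum of 10 reads. When 1 rat was left out, members higher with LSD numbered 4 to 13 and members lower 2 to 7. The shares of all genes also moved in these fits, from 3.97% to 10.1% higher and from 5.46% to 11.2% lower. At equal depth 6 members were higher (6.39% of all genes), and with total reads 3 were lower (5.17%). With no filter 7 were higher and 1 lower (3.81% and 3.32% of 25199 genes). Over all genes, 858 were lower with total reads and 836 with no filter, against 1418, 1691 were higher without the 4 libraries rich in striatal markers, against 1076, and leaving out 1 rat gave 659 to 1681 higher and 907 to 1867 lower. Pathway and marker genes called numbered 14 higher and 13 lower (6.48% and 8.54% of all genes). Against these, 9 were higher with no filter (3.81%) and 22 lower with 1 surrogate variable (9.36%). With a rat left out, 5 to 18 were higher and 9 to 19 lower (3.97% to 10.1% and 5.46% to 11.2% of all genes). With total reads, r was 0.525 for Ccnd1 with Pdgfra, 0.567 for Plk3 with Fos and 0.554 for Cdkn1c with Cldn5 (permutation adjusted p = 0.0355 each). The causes of these shifts were not tested.

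Under the 8 alternative settings, 13 members, none of them called and none over 0.17 in absolute log2 fold change, changed sign, besides Cdkn1b, which was at 0.00. Among those given with an estimate of their own, these were, with 1 surrogate variable, Plk3 0.01, Ccna2 -0.02, Mcm6 -0.05 and Cdkn1b -0.11; at equal depth Ccna2 -0.19 and Cdkn1c 0.02; with total reads Ccnb1 0.01 and Cdkn1c 0.04; with no filter Cdkn1c 0.01. Without the 4 libraries rich in striatal markers, Ccnb1 was at 0.03 and Cdk4 at 0.02. With a rat left out, Cdkn1b ranged from -0.03 to 0.05, Cdkn1c from -0.08 to 0.10 and Ccnb1 from -0.06 to 0.00.

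The replicate numbers shared by the groups were not treated as pairs in the main test. Same-numbered rats correlated at -0.179 to 0.335 (median 0.12), 6 of 10 pairs over 0.1, and rats of different numbers at a median of -0.0455. Of the LSD-treated rats, 1 of 10 correlated best with its own number. With the replicate block, 9 members were higher and 6 lower (8.16% and 9.67% of all genes), and 21 pathway and marker genes were lower. Ccnt1 and Cdk7 missed the threshold (adjusted p = 0.058 and 0.0598), and Cdk14 (0.034) and Cdk18 (0.0158) passed it. Depth limits the 17 members with a median under 50 reads, Cdk1 and Aurkb above all.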
